A study of Mus musculus with 16 samples.

Results

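The IL-6 family and STAT3 response genes were followed here as 9 members, Lifr, Il6st, Il6ra, Jak1, Stat3, Socs3, Cebpd, Bcl3 and Sbno2, taken by symbol from a table of 24982 gene entries. All 9 were in the table, and all 9 were among the 15507 genes that passed the filter on low counts. The set was chosen by the measured difference of Sbno2 between injections in these same libraries, where it had been seen to be higher after arthritis induction. The other 8 are genes of the pathway. Differences between complete Freund's adjuvant (CFA) and vehicle are therefore given for the members as a description, and where a count of calls over all genes takes in a member, nothing is read from it. Tests are kept for the differences between genotypes and for the interaction.

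RNA was sequenced from lumbar dorsal root ganglia (L4 to L6) taken from the side of the injected ankle. These ganglia hold the cell bodies of the sensory neurons that serve the joint. The C57BL/6 mice, 10 to 12 weeks old, were of 4 groups with 4 libraries each. KI CFA mice carried the knock-in that the labels call TrkA/C and received CFA, an oil suspension that provokes lasting inflammation, into the ankle joint. KI vehicle mice carried the same knock-in and received vehicle, which the sample titles call saline. WT CFA mice were wild type and received CFA, and WT vehicle mice were wild type and received vehicle. Ganglia were taken 14 days after the injection, and each library pooled 6 ganglia from 2 mice, so a value is already an average over animals. The labels do not describe the knock-in construct further.

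Library totals ran from 22742209 to 40910947 counts. Ntrk3, which encodes TrkC, lay between 99.1 and 138 CPM (counts relative to the TMM-scaled library total) in the 8 KI libraries and between 29.3 and 61.4 CPM in the 8 WT libraries. The genotype tag of WT CFA 1 goes against its title by naming the knock-in, and that library had 48.4 CPM of Ntrk3, within the WT range. The 9 sensory neuron markers summed to between 14010 and 16363 CPM, with none at 0 in any library. Several libraries stood apart. The 8 skeletal muscle markers summed to 773, 105 and 696 CPM in KI vehicle 1, 3 and 4, against at most 67.1 CPM in any WT library. The 10 neutrophil markers summed to 282 CPM in KI CFA 3 and to between 5.21 and 32.0 CPM in the other 15. WT vehicle 4 had a mean log2 CPM of 6.93 over ribosomal protein genes, against 6.30 to 6.53 in the others. WT CFA 1 and 2 had the highest mean log2 CPM of the axon injury genes, at 4.91 and 4.85, against 2.85 to 4.28 in the other 14.

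Cytokines of the IL-6 family bind a ligand-specific receptor subunit that joins with gp130, the shared signalling chain encoded by Il6st. Janus kinases bound to these chains then phosphorylate STAT3, which enters the nucleus and switches on target genes. Among those targets is Socs3, whose product blocks the receptor complex and ends the signal. In sensory ganglia, the pathway is known for its part in the response of neurons to axon injury and in inflammatory pain. The measurements here are of transcripts, and the phosphorylation of STAT3 was not measured. In bulk ganglia, fewer cells of a type and less RNA per cell cannot be told apart.

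The levels of the 9 members, set per length of exon, differed widely. Jak1 averaged 80.5 CPM per kb over all 16 libraries and Lifr 74.1 CPM per kb. Il6st followed at 49.1 and Stat3 at 47.7 CPM per kb. Sbno2 (5.08) and Bcl3 (4.92) were an order lower, then Socs3 (2.74) and Cebpd (2.54), and Il6ra came last at 0.289 CPM per kb. Within each of these 4 pairs the single libraries overlapped, and the lowest Bcl3 value (3.58) also lay under the highest Socs3 value (3.80). In contrast, the lowest Lifr value (56.5) lay above the highest Il6st value (54.7), and the highest Il6ra value was 0.491. The shared chain and the LIF receptor were thus among the high members, and the chain that binds IL-6 was the lowest.

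**Figure D1:**
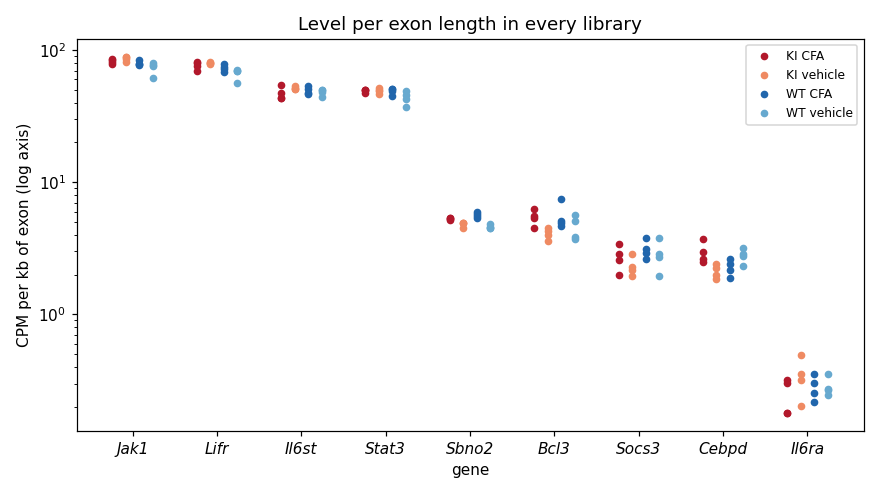
Level of each member in CPM per kb of exon on a log axis, with 1 point per library and colours for the 4 groups. The receptor chains Lifr and Il6st, the kinase Jak1 and Stat3 lie above 37 CPM per kb in every library, and Il6ra stays at or below 0.491.

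The first members are the receptor chains. Lifr encodes the LIF receptor, which pairs with gp130 to receive LIF and CNTF (Entrez 16880, chromosome 15, 7090610 to 7197489, GRCm38.p6, the assembly also called mm10). It had 859, 846, 861 and 874 CPM in KI vehicle 1 to 4, against 757, 755, 747 and 608 CPM in WT vehicle 1 to 4. No KI vehicle library was as low as any WT vehicle library, and WT vehicle 4 lay far below the other 3. The means were 860.0 ± 11.2 CPM in KI vehicle and 717 ± 72.4 CPM in WT vehicle (SD, n = 4 each). Lifr was 1.20-fold higher in KI, by 0.26 ± 0.07 on the log2 scale (SE; edgeR adjusted p = 0.0363).

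With CFA, Lifr had 747, 819.7, 864 and 877 CPM in KI CFA 1 to 4, against 809, 839.5, 778 and 734 CPM in WT CFA 1 to 4. These groups overlapped, and the difference was 0.07 ± 0.07 on the log2 scale (edgeR adjusted p = 0.811). Over both injections Lifr rose by 0.16 ± 0.05 in KI (edgeR adjusted p = 0.0372). The call with vehicle did not hold without any 1 of the 4 KI vehicle libraries or without WT vehicle 3 or 4 (0.19 to 0.28). The call over both injections ended without KI CFA 2, KI CFA 3 or KI CFA 4, any 1 KI vehicle library, WT CFA 3 or WT CFA 4 (0.15 to 0.17). Without WT vehicle 4, the library with the high ribosomal protein level, the difference was 0.19 (edgeR adjusted p = 0.0610). Without KI vehicle 1, 3 and 4, the libraries with muscle transcripts, it was 0.24 (edgeR adjusted p = 0.623), with the lone KI vehicle library assumed to vary like the other groups. A replicate block ended both calls (0.27, edgeR adjusted p = 0.0508, with vehicle, and 0.17, edgeR adjusted p = 0.0501, over both injections). The compared groups alone (0.27, edgeR adjusted p = 0.105) and the source name number as a covariate (0.26, edgeR adjusted p = 0.0509) ended the vehicle call. Here and below, that number entered the fit as low or high, not as its value. Whether the genotype difference itself changed with CFA was tested as the interaction, which was -0.20 ± 0.09 and not called (edgeR adjusted p = 0.718).

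Of the 9 members, Lifr was the 1 called between KI and WT with vehicle, where 4.34% of all genes tested were called. None was called with CFA, where 2.84% of genes were, and Lifr was the 1 called over both injections, where 8.96% of genes were. A single call among 9 members does not set them apart from all genes. With vehicle, 3 members had KI and WT groups that did not overlap, Lifr, Jak1 and Il6st, all higher in KI, and 14.6% of all genes had such groups. With CFA the count was 0 of 9, against 8.13% of all genes. The median log2 difference over the members was 0.10 with vehicle and -0.03 with CFA, beside a median over all genes of 0.0015 with vehicle and 0.0021 with CFA.

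Il6st encodes gp130 (Entrez 16195, chromosome 13, 112464070 to 112506860). It had 576, 559, 565 and 592 CPM in KI vehicle 1 to 4, against 555, 557, 539 and 487 CPM in WT vehicle 1 to 4. The groups only just parted, and the difference of 0.10 ± 0.07 was not called (edgeR adjusted p = 0.404) and was 0.06 without WT vehicle 4. With CFA it had 485, 479, 522 and 607 CPM in KI CFA 1 to 4, against 598, 563, 520.0 and 522 CPM in WT CFA 1 to 4. KI CFA held both the lowest and the highest of these 8 values, and the difference was -0.07 ± 0.07 (edgeR adjusted p = 0.788).

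Il6ra, the chain that binds IL-6 itself (Entrez 16194, chromosome 3, 89869324 to 89913196), rested on 49 to 160 counts per library. Its values were 2.77, 1.55, 2.63 and 1.55 CPM in KI CFA 1 to 4 and 1.77, 4.24, 2.76 and 3.06 CPM in KI vehicle 1 to 4. WT CFA 1 to 4 had 2.195, 3.07, 1.89 and 2.59 CPM, and WT vehicle 1 to 4 had 2.298, 3.03, 2.13 and 2.36 CPM. All groups overlapped, and the KI groups spread most, with coefficients of variation of 31.3% (CFA) and 34.4% (vehicle). The genotype difference was 0.27 ± 0.26 with vehicle (edgeR adjusted p = 0.564) and -0.20 ± 0.26 with CFA (edgeR adjusted p = 0.873). Without KI vehicle 2, the highest library, the vehicle difference was 0.04, and over the fits without 1 library it ran up to 0.45, and the CFA difference from -0.35 to -0.07.

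**Figure D2:**
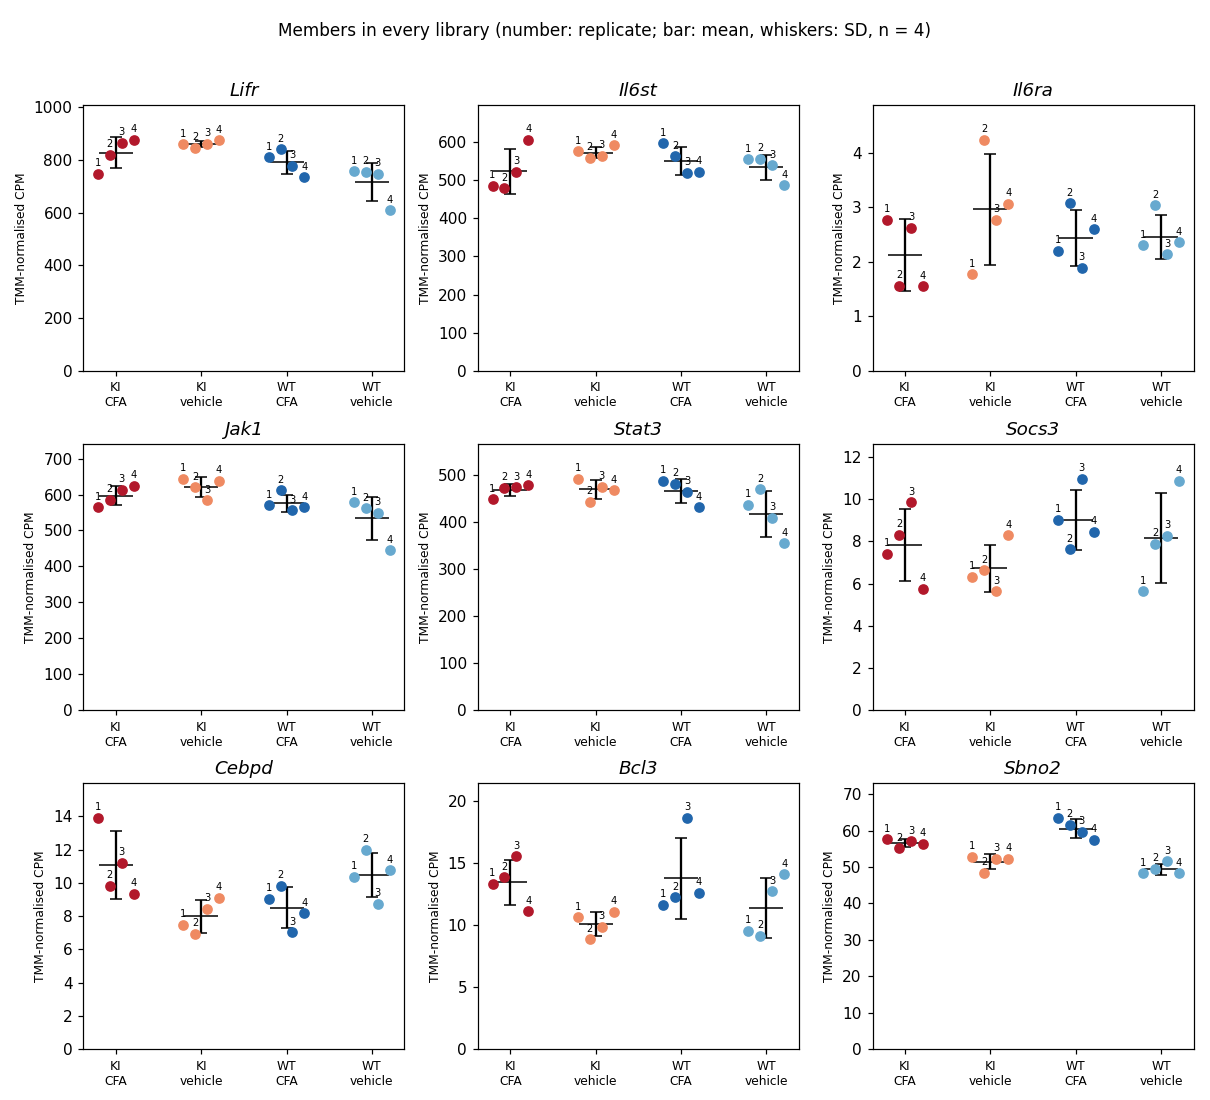
TMM-normalised CPM of the 9 members in every library, with KI CFA, KI vehicle, WT CFA and WT vehicle from left to right, replicate numbers at the points, and the mean with SD (n = 4). Lifr in KI vehicle sits between 846 and 874 CPM, above all WT vehicle libraries, and Sbno2 is higher in both CFA groups than in both vehicle groups.

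Jak1 encodes the main kinase that gp130 receptors use (Entrez 16451, chromosome 4, 101151974 to 101265282). It had 644, 620.1, 584 and 639 CPM in KI vehicle 1 to 4, against 579, 562, 549 and 445 CPM in WT vehicle 1 to 4. As for Lifr, the groups did not overlap and WT vehicle 4 was lowest. The difference of 0.22 ± 0.07 missed the threshold with edgeR (adjusted p = 0.0655) and passed it with DESeq2 (0.23, adjusted p = 0.0269), and over its alternatives the adjusted p ran from 0.0269 to 0.648. Without WT vehicle 4 it was 0.14 (edgeR adjusted p = 0.123). With CFA the values were 565, 585, 613 and 624 CPM in KI CFA 1 to 4, against 570.5, 612, 557 and 565 CPM in WT CFA 1 to 4. These overlapped, with a difference of 0.05 ± 0.07 (edgeR adjusted p = 0.875).

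Stat3, the transcription factor at the centre of the pathway (Entrez 20848, chromosome 11, 100886806 to 100939594), followed the same order. It had 491, 442, 474 and 466 CPM in KI vehicle 1 to 4, against 436, 469, 409 and 354 CPM in WT vehicle 1 to 4. The groups overlapped, and the difference of 0.17 ± 0.07 was not called (edgeR adjusted p = 0.142). Without WT vehicle 4 it was 0.0975 (edgeR adjusted p = 0.370). With CFA it had 448, 472, 473 and 477 CPM in KI CFA 1 to 4 and 487, 480.1, 464 and 431 CPM in WT CFA 1 to 4. The difference there was 0.0064 ± 0.07 (edgeR adjusted p = 0.994), and the KI CFA values all lay within the wider WT CFA range.

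WT vehicle 4 was the library with the lowest Lifr, Jak1 and Stat3 of all 16, and with the lowest Il6st of its group. In the same library Socs3 (10.9 CPM) and Bcl3 (14.1 CPM) were the highest of the WT vehicle group. Relative to the mean over all libraries, on the log2 scale, Lifr stood there at -0.39, Jak1 at -0.38 and Stat3 at -0.36, while Socs3 stood at 0.48 and Bcl3 at 0.24. The high ribosomal protein level of this library moved with these values, and its part in them was not tested.

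**Figure D3:**
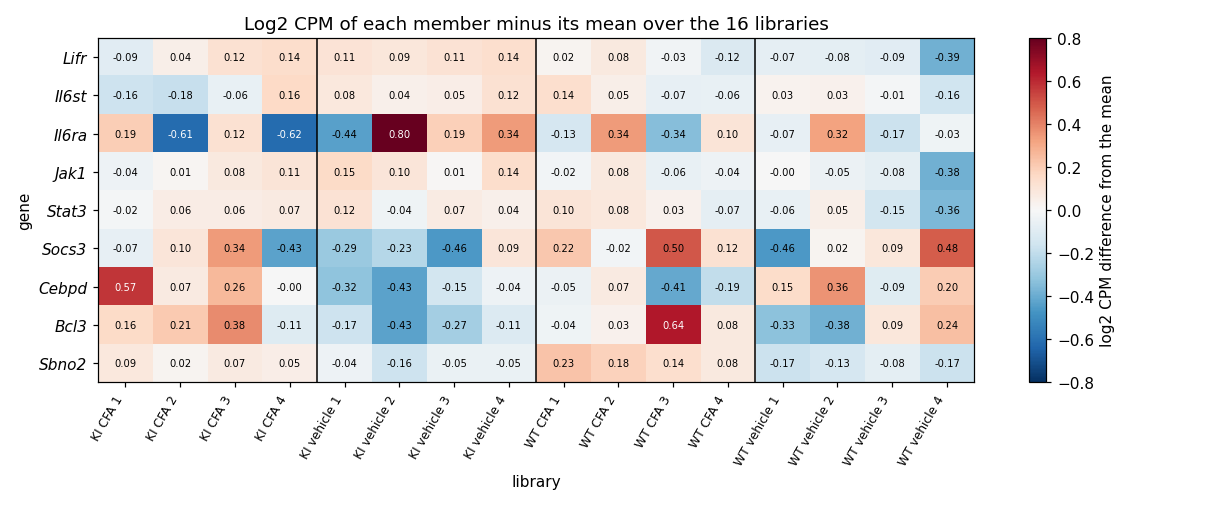
Log2 CPM of each member minus its own mean over the 16 libraries, with libraries in columns and members in rows. In WT vehicle 4 the Lifr (-0.39), Jak1 (-0.38), Stat3 (-0.36) and, less so, Il6st (-0.16) rows are low. Il6ra is near its mean there (-0.03), and Socs3 is high (0.48). Sbno2 is positive in all 8 CFA libraries and negative in all 8 vehicle libraries.

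Promoters of Socs3 and Sbno2 are shown because these were the members whose windows held the core of a STAT site. The windows are RefSeq sequences of GRCm38.p6, from 250 bases before to 50 bases after a start, and 8 of the 9 members had at least 1, with 11 windows in all. The letters TTCNNNGAA, which read the same on both strands, are in capitals. They occurred in 3 of the 11 windows and in 8.30% of all 32851 windows. By gene, they occurred in 2 of the 8 members with a window and in 9.55% of all 27025 genes with a window.
Sbno2, chr10:80102653-80102952, minus strand: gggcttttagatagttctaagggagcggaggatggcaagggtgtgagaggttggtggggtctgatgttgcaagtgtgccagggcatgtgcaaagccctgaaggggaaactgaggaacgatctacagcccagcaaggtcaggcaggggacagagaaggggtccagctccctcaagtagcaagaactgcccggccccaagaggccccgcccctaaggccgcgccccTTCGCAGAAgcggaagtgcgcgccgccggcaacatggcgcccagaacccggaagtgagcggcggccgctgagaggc
Sbno2, chr10:80101138-80101437, minus strand: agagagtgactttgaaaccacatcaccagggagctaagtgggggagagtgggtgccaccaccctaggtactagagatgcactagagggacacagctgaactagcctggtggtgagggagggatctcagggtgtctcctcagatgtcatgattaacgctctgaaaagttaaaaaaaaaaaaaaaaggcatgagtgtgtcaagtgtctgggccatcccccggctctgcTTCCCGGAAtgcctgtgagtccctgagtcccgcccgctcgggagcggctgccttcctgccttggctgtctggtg
Socs3, chr11:117969317-117969616, minus strand: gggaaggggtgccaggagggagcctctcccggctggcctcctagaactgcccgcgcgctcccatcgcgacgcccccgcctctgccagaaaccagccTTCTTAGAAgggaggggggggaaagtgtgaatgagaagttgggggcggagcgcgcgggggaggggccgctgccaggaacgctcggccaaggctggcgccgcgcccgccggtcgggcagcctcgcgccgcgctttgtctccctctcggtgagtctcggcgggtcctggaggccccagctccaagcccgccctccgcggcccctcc
In the Sbno2 windows shown, the match began 26 and 24 bases before the start of the window concerned. In that of Socs3 it began 154 bases before. Each window shown lies inside the span of its gene, so its start is not the outer end of that span. A further Sbno2 window, chr10:80075390-80075689, held no match and is not shown. The same ends with 4 bases between them were found in 0 of the 11 windows and in 6.95% of all windows. A match is a stretch of letters and does not show that STAT3 binds there.

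The transcripts known to be induced by the pathway come next. Socs3, the feedback inhibitor (Entrez 12702, chromosome 11, 117966079 to 117970336), had 7.41, 8.31, 9.85 and 5.75 CPM in KI CFA 1 to 4 and 6.32, 6.63, 5.63 and 8.29 CPM in KI vehicle 1 to 4. WT CFA 1 to 4 had 9.04, 7.63, 11.0 and 8.45 CPM, and WT vehicle 1 to 4 had 5.62, 7.87, 8.27 and 10.9 CPM. All 4 groups overlapped. The genotype difference was -0.28 ± 0.19 with vehicle (edgeR adjusted p = 0.389) and -0.20 ± 0.19 with CFA (edgeR adjusted p = 0.778). Without 1 library these ran from -0.42 (without WT vehicle 1) to -0.11 (without WT vehicle 4) with vehicle, and from -0.33 (without KI CFA 3) to -0.08 (without KI CFA 4) with CFA.

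Bcl3 encodes an atypical IkB protein that works in the nucleus with NF-kB subunits (Entrez 12051, chromosome 7, 19808462 to 19822824). It had 13.3, 13.8, 15.5 and 11.1 CPM in KI CFA 1 to 4, against 10.6, 8.85, 9.86 and 11.1 CPM in KI vehicle 1 to 4. The KI CFA libraries all lay above the KI vehicle libraries, though replicate 4 of each nearly met (11.09 CPM with CFA and 11.07 CPM with vehicle), and the log2 difference was 0.41 ± 0.16. WT CFA 1 to 4 had 11.6, 12.2, 18.6 and 12.6 CPM, against 9.51, 9.14, 12.7 and 14.1 CPM in WT vehicle 1 to 4. Those groups overlapped, with a difference of 0.28 ± 0.16 that was 0.10 without WT CFA 3. In KI CFA, Socs3 and Bcl3 were both highest in replicate 3, the library with the neutrophil transcripts. Without it the CFA difference in KI was 0.09 for Socs3, against 0.22 with it, and 0.33 for Bcl3, against 0.41. Both genes were higher in WT CFA 3 (Socs3 11.0 and Bcl3 18.6 CPM), where the neutrophil markers summed to 8.80 CPM. The part of the neutrophil transcripts in these values was not tested. Between genotypes Bcl3 differed by -0.17 ± 0.16 with vehicle (edgeR adjusted p = 0.566) and by -0.03 ± 0.16 with CFA (edgeR adjusted p = 0.979).

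Cebpd, which encodes the transcription factor C/EBP delta of the acute-phase response (Entrez 12609, chromosome 16, 15887286 to 15889545), went opposite ways in the 2 genotypes. It had 13.9, 9.81, 11.2 and 9.32 CPM in KI CFA 1 to 4, against 7.47, 6.92, 8.43 and 9.08 CPM in KI vehicle 1 to 4. In KI, every CFA library was above every vehicle library, and the log2 difference was 0.47 ± 0.14. It had 9.04, 9.84, 7.02 and 8.16 CPM in WT CFA 1 to 4, against 10.4, 12.0, 8.74 and 10.8 CPM in WT vehicle 1 to 4. In WT the groups overlapped, and the difference was -0.30 ± 0.14.

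The interaction for Cebpd, the CFA difference in KI minus that in WT, was 0.77 ± 0.20 on the log2 scale. It was not called over all genes (edgeR adjusted p = 0.718, and 0.407 to 0.999 over its alternatives), although its value stayed between 0.64 and 0.97. Between genotypes, Cebpd stood at -0.40 ± 0.14 with vehicle (edgeR adjusted p = 0.101) and at 0.38 ± 0.14 with CFA (edgeR adjusted p = 0.211). Over both injections the KI minus WT value was -0.01 ± 0.10. Exons of Spidr lie antisense to Cebpd in the GENCODE M21 annotation, and the strand setting of the counting is not given in the sources used here. Spidr averaged 5.23 ± 0.89 CPM in KI CFA, 5.40 ± 0.99 in KI vehicle, 4.82 ± 1.18 in WT CFA and 5.11 ± 0.63 in WT vehicle (SD, n = 4 each), with an interaction of 0.04 ± 0.25. Stat5a exons likewise lie antisense to Stat3, Raver2 exons to Jak1, and non-coding antisense exons to Il6ra and Bcl3.

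For the interaction, 0 of the 9 members and 0 of 15507 genes (0%) were called by edgeR, 976 genes had an unadjusted p under 0.05, and DESeq2 and limma-voom also called 0. The interaction was negative for 6 members and positive for Cebpd, Bcl3 and Socs3. That of Sbno2 was -0.16 ± 0.07 (edgeR adjusted p = 0.718).

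**Figure D4:**
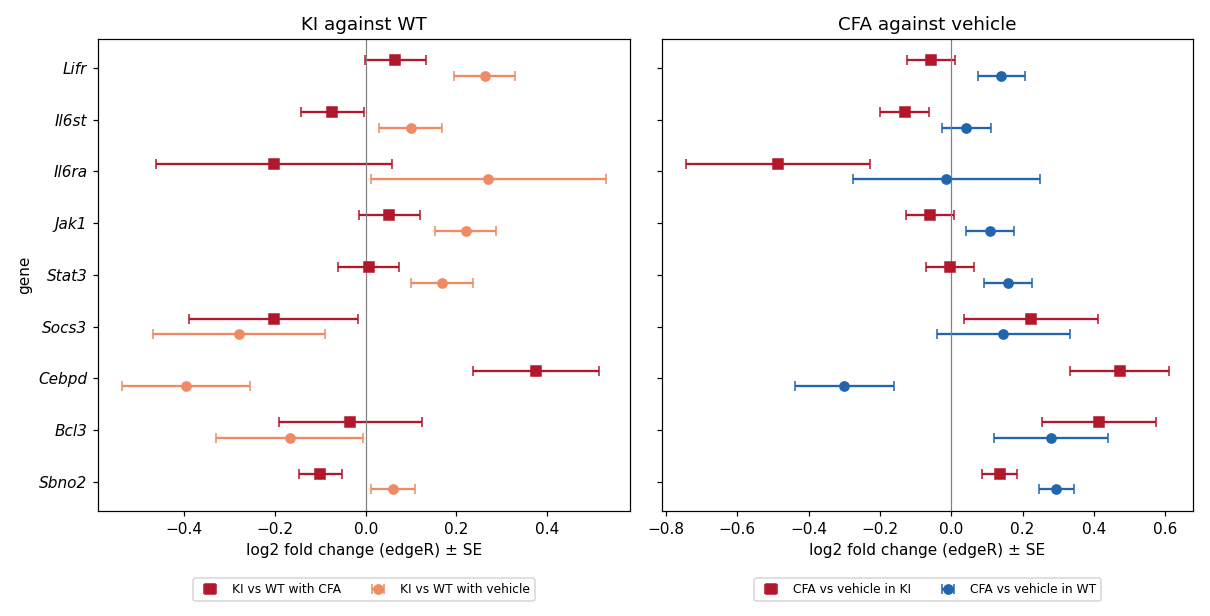
Log2 fold change with SE for each member, KI against WT on the left (with CFA and with vehicle) and CFA against vehicle on the right (in KI and in WT). Cebpd lies at 0.38 and -0.40 in the left panel and at 0.47 and -0.30 in the right, while Sbno2 is positive in both genotypes on the right.

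Sbno2, a homologue of Drosophila strawberry notch that is described as a transcriptional regulator induced downstream of STAT3 (Entrez 216161, chromosome 10, 80056992 to 80106108), is the member that led to the choice of the set. It had 57.6, 55.1, 57.0 and 56.3 CPM in KI CFA 1 to 4, against 52.8, 48.5, 52.3 and 52.3 CPM in KI vehicle 1 to 4. It had 63.5, 61.6, 59.7 and 57.4 CPM in WT CFA 1 to 4, against 48.3, 49.4, 51.5 and 48.2 CPM in WT vehicle 1 to 4. All 8 CFA libraries were above all 8 vehicle libraries. The log2 difference was 0.14 ± 0.05 in KI (1.10-fold) and 0.29 ± 0.05 in WT (1.23-fold). Over the fits without 1 library, that in KI ran from 0.11 to 0.15. It was 0.22 without KI vehicle 1, 3 and 4, which leaves KI vehicle 2, the lowest of that group at 48.5 CPM.

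Cell type markers were summed in the same libraries. The summed sensory neuron markers ran from 14576 to 16363 CPM in KI CFA, against 14010 to 14622 CPM in KI vehicle, and from 15051 to 16020 CPM in WT CFA, against 14168 to 15154 CPM in WT vehicle. The 5 fibroblast markers ran from 339 to 610 CPM in KI CFA, against 439 to 670 CPM in KI vehicle, and from 270 to 471 CPM in WT CFA, against 465 to 503 CPM in WT vehicle. All of these ranges overlapped, though only in part. Of the CFA libraries, only KI CFA 4 (14576 CPM) and WT CFA 4 (15051 CPM) reached down into the neuron range of their vehicle group. For fibroblasts, only KI CFA 1 (610 CPM) and WT CFA 2 (471 CPM) reached up into theirs. The part of either list in the Sbno2 values was not tested.

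The spread of Sbno2 within groups was small. Its coefficient of variation was 1.85% in KI CFA, 3.89% in KI vehicle, 4.33% in WT CFA and 3.13% in WT vehicle. In WT the highest values were those of WT CFA 1 and 2, the libraries with the high axon injury level (Atf3 at 27.2 and 32.4 CPM, against 5.59 to 16.1 in the other 14). WT CFA 3 and 4 had Atf3 at 8.94 and 10.1 CPM, and their Sbno2 values also lay above every WT vehicle library. The part of the axon injury level in the Sbno2 values was not tested. Between genotypes, Sbno2 was not called with vehicle (0.06 ± 0.05, edgeR adjusted p = 0.482) or with CFA (-0.10 ± 0.05, edgeR adjusted p = 0.403).

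The CFA comparisons gave few calls over all genes. With the mean of both genotypes edgeR called 4 genes (0.0258% of 15507), Ptpn9, Rasa4, Sbno2 and Tfrc, so 1 of the 9 members was among them. That member was chosen on this contrast, so its place there is no test of it, and 13 of the 16 fits without 1 library did not call it. It was called without KI CFA 1, KI vehicle 2 or WT vehicle 4, with values of 0.20 to 0.23 over all 16 fits. Nor was it called without the filter on low counts, with a replicate block or with the source name number as a covariate. For CFA within KI and within WT, as contrasts of the fit to all 16 libraries, edgeR called 0 genes (0%). There, 881 genes had an unadjusted p under 0.05 in KI and 1079 in WT. A fit to the KI groups alone called 1 gene. The fit without KI vehicle 2 called 53 in KI, and that without WT CFA 1 called 2 in WT. DESeq2 called 15 genes in KI and 11 in WT, and limma-voom called 0 in KI and 1 in WT. In KI, 3 members (Sbno2, Cebpd and Bcl3) had CFA and vehicle groups that did not overlap, and 4.32% of all genes had such groups. In WT, Sbno2 was the 1 such member, against 3.02% of all genes. These contrasts chose the set, so nothing is read from the members' counts.

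The remaining members are given by value. In KI, the log2 difference was -0.06 ± 0.07 for Lifr, -0.13 ± 0.07 for Il6st, -0.49 ± 0.26 for Il6ra, -0.06 ± 0.07 for Jak1, -0.0032 ± 0.07 for Stat3 and 0.22 ± 0.19 for Socs3. In WT, it was 0.14 ± 0.07 for Lifr, 0.04 ± 0.07 for Il6st, -0.01 ± 0.26 for Il6ra, 0.11 ± 0.07 for Jak1, 0.16 ± 0.07 for Stat3 and 0.15 ± 0.19 for Socs3. The WT values share the WT vehicle libraries with the genotype comparison above, so a low WT vehicle 4 enters both. Without that library the WT value was 0.07 for Lifr, 0.03 for Jak1 and 0.09 for Stat3.

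The genes whose level was most like that of Sbno2 were ranked by Pearson's r of log2 CPM over all 16 libraries, among the 13739 tested genes that averaged 1 CPM or more. The first 5 were Slc44a2 (r = 0.86), Gbe1 (0.82), Itgb1 (0.82), Ptpn9 (0.82) and Cttn (0.78). With each group's mean subtracted, they were Gli3 (0.90), Brf1 (0.84), Tceanc2 (0.83), Ddx23 (0.80) and Synpo (0.79), none of which was in the first list. No member of the set was on either list. As the highest of 13739, these values carry no test.

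The rest of the pathway was read from lists chosen with earlier results of these data known. Of 13 IL-6 family ligands, 7 were tested and none was called in any of the 7 comparisons, with a median log2 difference between KI and WT of -0.20 with vehicle and 0.29 with CFA. Ligand transcripts were scarce. Il6 had at most 13 counts in any library, Osm at most 9, and Lif a mean of 0.40 CPM in KI CFA, 0.31 in KI vehicle, 0.27 in WT CFA and 0.27 in WT vehicle. Of 6 further receptors tested, 2 rose in KI over both injections (8.96% of all genes were called there) and 4 were not called, and none was called with vehicle (4.34% of all genes) or with CFA (2.84%). Osmr, the oncostatin M receptor that pairs with gp130, averaged 84.3 CPM in KI CFA and 78.5 in KI vehicle, against 77.4 in WT CFA and 66.5 in WT vehicle. It was higher in KI by 0.18 ± 0.05 (edgeR adjusted p = 0.0211), a call that held without any 1 library. Lepr, the leptin receptor, rose by 0.50 ± 0.14 (edgeR adjusted p = 0.0291). Of the 16 fits without 1 library, 5 lost this call (0.41 to 0.48). WT vehicle 1, WT CFA 2, WT CFA 4, KI vehicle 4 and KI CFA 3 were the libraries concerned. Cntfr, the CNTF-binding chain, was not called and averaged between 84.9 and 87.4 CPM in the 4 groups.

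Of 24 further Janus kinases, STAT factors and regulators tested, 1 rose in KI with vehicle, 0 were called with CFA and 2 rose over both injections, beside 4.34%, 2.84% and 8.96% of all genes called. These counts are near the shares over all genes. Ptprt, a receptor phosphatase described as acting on STAT3, averaged 408 CPM in KI vehicle, against 303 in WT vehicle. It was higher by 0.43 ± 0.08 (edgeR adjusted p = 0.00656) with groups that did not overlap, and over both injections by 0.29 ± 0.06 (edgeR adjusted p = 0.00307). Pias2, of the family of STAT inhibitors, rose over both injections by 0.16 ± 0.04 (edgeR adjusted p = 0.0312), a call that 6 of the 16 fits without 1 library lost (0.15 to 0.16). WT vehicle 1, WT CFA 3, KI CFA 3 and KI vehicle 2, 3 and 4 were the libraries concerned.

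Of 36 further STAT3 response genes tested, 2 fell in KI with vehicle, 0 were called with CFA and 1 fell over both injections, beside 4.34%, 2.84% and 8.96% of all genes called. These counts do not stand out from the shares over all genes. Fgg, a fibrinogen chain of the acute-phase response, averaged 0.60 CPM in KI vehicle, against 1.74 in WT vehicle. It was lower by -1.53 ± 0.34 (edgeR adjusted p = 0.0182), a call that ended without KI vehicle 4 (-1.35) or WT vehicle 4 (-1.13), and over both injections it stood at -1.12 ± 0.23 (edgeR adjusted p = 0.00475). Fos, an immediate early gene, averaged 3.18 CPM in KI vehicle, against 5.67 in WT vehicle, at -0.84 ± 0.18 (edgeR adjusted p = 0.0164). The median of these 36 genes was -0.15 with vehicle and 0.0025 with CFA, beside 0.0015 and 0.0021 over all genes. Some acute-phase transcripts were high in 1 library. Lcn2 had 22.1 CPM in KI CFA 3, against 1.18 to 1.43 in the other KI CFA libraries and 0.82 to 1.30 in KI vehicle, and Hp had 6.76 CPM there, against at most 1.02 in any other library. KI CFA 3 is the library with the neutrophil markers, and their part in these values was not tested.

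Axon injury genes were set beside the members because the pathway is active after nerve injury. Of 14 tested, 5 fell in KI with vehicle (4.34% of all genes were called), 5 fell with CFA (2.84%) and 0 rose in either. The median log2 difference was -0.42 with vehicle and -0.66 with CFA. The other 9 were not called. With vehicle, Sox11 (0.35), Flrt3 (0.13) and Jun (0.08) were positive. The remaining uncalled genes were negative there, among them Atf3 (-0.16), Sprr1a (-0.66) and Ecel1 (-0.13). WT CFA 1 and 2, the libraries with the high axon injury level, enter the CFA values. Gal, a neuropeptide raised by nerve injury, averaged 11.7 CPM in KI vehicle, against 28.0 in WT vehicle, and 11.1 CPM in KI CFA, against 25.5 in WT CFA. The differences were -1.27 ± 0.22 with vehicle (edgeR adjusted p = 0.00431) and -1.20 ± 0.22 with CFA (edgeR adjusted p = 0.00421). Gap43, a growth cone protein, stood at -0.69 ± 0.08 with vehicle and -0.79 ± 0.08 with CFA. Adcyap1 and Stmn4 were lower with both injections too, and Hspb1 with vehicle (-0.37), where the call ended without KI vehicle 4 (-0.32). Jun was lower with CFA (-0.37), and 7 of the 16 fits without 1 library lost this call (-0.37 to -0.32). WT CFA 1, 2 and 3, KI vehicle 3 and KI CFA 2, 3 and 4 were the libraries concerned. Against these, Stat3 had differences of 0.17 and 0.0064 and Socs3 of -0.28 and -0.20 with vehicle and CFA, and none of the 4 was called.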

How the data were processed

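The deposited table gives 1 raw count per gene and library, which the authors left unscaled (per the file headers). HTSeq 0.6.1p1, SAMtools 1.5, Bowtie2 2.3.5.1, TopHat2 2.1.1, FastQC, bcl2fastq 2.20 and build mm10 are named in the submitters' processing notes, and neither strand mode nor annotation is given in the sources used here.

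Groups followed the sample titles, and libraries are biological samples per the labels. All genes were tested with edgeR 4.0.16 (quasi-likelihood, TMM factors, filterByExpr, 1 mean per group over 16 libraries), and a call is an adjusted p under 0.05 (Benjamini-Hochberg, 15507 genes). SE is the log2 fold change over the root of F. Log2 CPM had a prior count of 2. CPM per kb used GENCODE M21 exon unions. A count of 3 equals 0.0733 to 0.132 CPM. The fit was tested on simulated data.

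The rule for named genes took all members, called genes of each list (at most 6) and the 5 genes most like Sbno2. Lcn2, Hp, Il6, Osm, Lif, Cntfr, Atf3, Ptpn9, Rasa4, Tfrc and the antisense genes were named after their values were seen. The members and lists were chosen with earlier results of these data known. Alternatives were RLE factors, other filters and thresholds, DESeq2 1.42.0, limma-voom (limma 3.58.1), the compared groups alone and a replicate block. Further ones were fits without libraries and a covariate that split the source name numbers into low and high. For genes beyond the members all alternatives were added after seeing the data.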

Additional observations from a re-analysis of the deposited data

Results flagged for a closer look

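Among the 36 groups of 4 libraries (9 members in 4 groups), 4 had a library far from the other 3, where chance gives about 1 in 20. The members share the same libraries, so the 36 groups are not independent and the 4 are no test against that rate. Sbno2 was low in KI vehicle 2 (48.5 CPM), Stat3 was low in KI CFA 1 (448 CPM), Lifr was low in WT vehicle 4 (608 CPM) and Bcl3 was high in WT CFA 3 (18.6 CPM). Cebpd moved in opposite directions in the genotypes. Every KI CFA library was above the KI vehicle mean and every WT CFA library below the WT vehicle mean, and likewise every KI CFA library was above the WT CFA mean and every KI vehicle library below the WT vehicle mean. The interaction was 0.77 on the log2 scale, and its test over all genes gave an edgeR adjusted p of 0.718.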

How the results depend on the processing

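Il6ra had the fewest counts of the members (49 to 160 per library) and the largest biological coefficient of variation (24.4%). The count of members called with vehicle between KI and WT was 1, and it was 2 with DESeq2 or an adjusted p under 0.10, 0 with only the groups compared, the replicate block, the source name number as covariate, a threshold of 0.01 or without KI vehicle 1, 3 and 4, and 0 to 2 without single libraries. Over both injections it was 2 with DESeq2 or 0.10, 0 with the replicate block, a threshold of 0.01 or without KI vehicle 1, 3 and 4, and 0 to 1 without single libraries. For CFA against vehicle in WT it was 1 with DESeq2 or limma-voom, against 0. For the mean CFA difference it was 0 without a filter, with the replicate block, the source name number, a threshold of 0.01 or without KI vehicle 1, 3 and 4, and 0 to 1 without single libraries, where Sbno2 was called without KI CFA 1, KI vehicle 2 or WT vehicle 4 only. The cause of these changes was not tested.

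Lifr between genotypes with vehicle was 0.27 with the groups compared alone (adjusted p = 0.105), 0.27 with the replicate block (0.0508), 0.26 with the source name number (0.0509) and 0.24 without KI vehicle 1, 3 and 4 (0.623), and 0.19 to 0.30 without single libraries. Over both injections it was 0.17 with the replicate block (0.0501), and single libraries left 0.13 to 0.19. That call ended without KI CFA 2, 3 or 4, any KI vehicle library or WT CFA 3 or 4. With vehicle, Jak1 was called without WT vehicle 1 (0.26) and Stat3 without WT vehicle 2 (0.24), while without WT vehicle 4 Jak1 was 0.14, Stat3 0.0975, Il6st 0.06, Socs3 -0.11 and Bcl3 -0.05. Without KI vehicle 1, 3 and 4, Il6ra with CFA in KI was -0.998, Cebpd 0.68 and Sbno2 0.22. That fit leaves KI vehicle 2 alone in its group, the library with the highest Il6ra and the lowest Cebpd and Sbno2 of KI vehicle.

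Genotype and interaction values that changed sign were Sbno2 with vehicle (-0.0237) and Il6st over both injections (-0.0028) without KI vehicle 1, 3 and 4, and, with limma-voom, Stat3 (-0.0076) and Bcl3 (0.0946) with CFA and Il6st (-0.0215), Il6ra (-0.0287) and Bcl3 (0.0232) over both injections. With the source name number the interactions of Socs3 (-0.0833) and Bcl3 (-0.015) did. Without single libraries, Cebpd over both injections ran from -0.0740 to 0.0320, Il6ra from -0.0821 to 0.12, Il6st from -0.0265 to 0.0383, the Socs3 interaction from -0.0924 to 0.22, and, with CFA, Stat3 from -0.0289 to 0.0308 and Bcl3 from -0.11 to 0.15. None of these was called. Of the CFA values, Il6ra in WT ran from -0.139 to 0.113, Stat3 in KI from -0.0299 to 0.0206 and Jak1 over both genotypes from -0.0135 to 0.0461, and Il6st in WT was close to 0 without WT vehicle 4. Stat3 in KI was 0.04 with the source name number and 0.08 without KI vehicle 1, 3 and 4. Over all genes, the count with vehicle was 673 and went to 1476 with DESeq2, 214 with only the groups compared and 84 without KI vehicle 1, 3 and 4.

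Same-numbered libraries of different groups correlated between -0.21 and 0.13 in their deviations, with 3 of 24 pairs over 0.1, so the numbers are not shown to pair the samples. The replicate block left 484 calls with vehicle.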
